A study of Homo sapiens with 11 samples.

Results

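The loci of 10 transcription factors of the neural crest and of melanocytes (PAX3, FOXD3, MSX2, SNAI2, TWIST1, ZEB1, ZEB2, LEF1, TBX2 and IRF4) were examined for binding and histone acetylation in 92-1 cells. Each locus was the gene body as annotated by RefSeq on GRCh38.p14 with 50 kb on either side, and the 10 genes were listed by name, out of 19970 protein-coding genes on chromosomes 1 to 22 and X. 92-1 is an established line from a uveal melanoma, a tumour of the pigment cells of the eye. The cells were given, for 4 h, either the solvent DMSO or FHT-1015, a compound that blocks the ATPase activity of SMARCA4 (BRG1) and of SMARCA2. Chromatin immunoprecipitation with sequencing (ChIP-seq) was done for SOX10, MITF, TFAP2A (called AP-2 in the sample titles), SMARCA4 and the acetylated histone mark H3K27ac, with 1 library for each antibody in each condition, 10 in all. Of the 11 samples the last was input chromatin from DMSO cells, which entered no peak count. All libraries came from this 1 line, no group was replicated, and no genotype or other treatment separated the groups.

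Neural crest cells arise at the border of the neural plate, leave the neural tube through an epithelial to mesenchymal transition and give rise to melanocytes among other cell types. The 10 factors act at successive steps of that path, and melanomas often keep or regain their expression. SOX10, MITF and TFAP2A are transcription factors of the melanocyte lineage, SMARCA4 is a motor of the BAF complexes that move nucleosomes, and H3K27ac is found at promoters and enhancers in use. The pigment cell identity of the line was seen in the DMSO H3K27ac list, which had peaks over MLANA, PMEL, TYR, DCT and TYRP1 (7, 5, 3, 5 and 1). It had none over CD3E, ALB, EPCAM, KRT5, COL1A1 or COL1A2, and 4 over the leukocyte gene PTPRC that covered 1.08% of it.

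The 250 bases before the annotated start of 4 members are shown because they span the occupancy seen at the member starts: at FOXD3 all 5 antibodies had a peak there in both conditions, at PAX3 all had one except MITF in DMSO, at LEF1 only SMARCA4 in FHT-1015 had one, and at IRF4 none did. In DMSO the MITF peak at the PAX3 start, at chr2:222298802-222298991, ended just inside the gene and overlapped the FHT-1015 peak. The sequences are from RefSeq on GRCh38.p14, 5′ to 3′ on the strand of the gene. They lie at chr1:63322317-63322566 (plus strand, FOXD3), chr2:222298999-222299248 (minus strand, PAX3), chr4:108166302-108166551 (minus strand, LEF1) and chr6:391502-391751 (plus strand, IRF4). The 1 start listed for LEF1, at 108166301, lay inside its annotated gene body, which on this strand begins at 108168932. Capitals mark matches, on either strand, to GCCNNNGGC (AP-2 type), CACGTG or CATGTG (the E-box type read by MITF) and ACAAAG or ACAATG (SOX type).
FOXD3: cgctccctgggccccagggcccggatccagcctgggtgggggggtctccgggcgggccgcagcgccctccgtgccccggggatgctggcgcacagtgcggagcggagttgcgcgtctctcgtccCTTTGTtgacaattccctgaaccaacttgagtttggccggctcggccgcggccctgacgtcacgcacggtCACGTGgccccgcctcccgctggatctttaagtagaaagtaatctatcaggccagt
PAX3: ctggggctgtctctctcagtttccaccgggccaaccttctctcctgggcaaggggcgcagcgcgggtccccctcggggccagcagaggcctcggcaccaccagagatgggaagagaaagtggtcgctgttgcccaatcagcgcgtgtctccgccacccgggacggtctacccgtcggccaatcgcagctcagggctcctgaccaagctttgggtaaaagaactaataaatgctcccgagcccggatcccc
LEF1: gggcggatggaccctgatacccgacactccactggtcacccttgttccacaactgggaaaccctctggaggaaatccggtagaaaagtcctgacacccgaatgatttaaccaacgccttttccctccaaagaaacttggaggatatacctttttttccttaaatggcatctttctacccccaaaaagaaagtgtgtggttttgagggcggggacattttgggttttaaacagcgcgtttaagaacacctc
IRF4: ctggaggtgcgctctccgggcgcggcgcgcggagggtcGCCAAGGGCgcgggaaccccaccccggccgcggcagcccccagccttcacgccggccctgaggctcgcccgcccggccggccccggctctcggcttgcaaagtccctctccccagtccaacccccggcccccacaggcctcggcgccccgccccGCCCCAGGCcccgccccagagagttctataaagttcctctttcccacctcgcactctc

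The FOXD3 promoter held CACGTG with its first base 56 bases before the start, and CTTTGT, the reverse complement of a SOX motif, 126 bases before it. The IRF4 promoter held 2 AP-2 type matches, 212 and 58 bases before the start, with no peak of any antibody over it. None of the motifs was found in the PAX3 and LEF1 windows. Of 35116 promoters of 250 bases, 19.8% held the AP-2 type motif, 15.2% an E-box of this type and 21.2% a SOX motif, so that a match was common. Promoters were matched for 7 of the 10 members, 13 promoters in all. A match describes the letters only.

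Over the 10 loci, SOX10 had fewer peaks after FHT-1015, while the numbers for the other 4 antibodies lay within 1.13 times of those in DMSO. SOX10 peaks numbered 150 in DMSO and 66 in FHT-1015, a ratio of 0.44, and its peaks covered 81197 bp against 39842 bp. MITF had 89 and 101 peaks, TFAP2A 150 and 140, SMARCA4 174 and 167, and H3K27ac 124 and 123. In the whole lists the ratios of FHT-1015 to DMSO peaks were 0.322 (SOX10), 1.04 (MITF), 0.834 (TFAP2A), 0.880 (SMARCA4) and 0.706 (H3K27ac). The relative depth of the FHT-1015 to the DMSO library, recovered from the peaks, was 1.15 (SOX10), 0.854 (MITF), 0.960 (TFAP2A), 0.918 (SMARCA4) and 1.05 (H3K27ac). The share of these depths in the differences in peak number was not tested. When the longer list of each antibody was reduced to its strongest peaks, as many as the shorter list held, the ratios at the 10 loci turned to 1.27 for SOX10 (52 DMSO peaks) and to 1.46 for H3K27ac (84 DMSO peaks). With 1 library a condition there was no spread between replicates to compare a difference with, and no test was made.

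**Figure D1:**
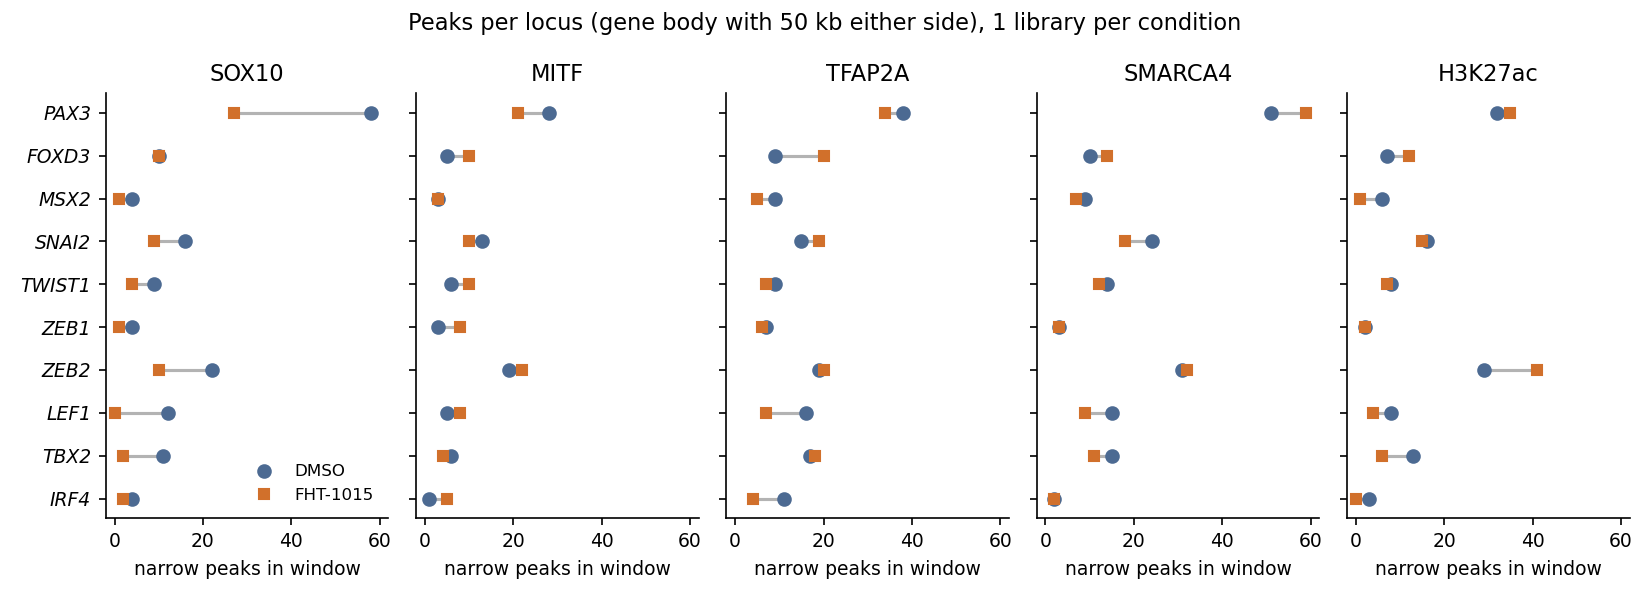
Number of narrow peaks (x axis) in the window of each of the 10 loci (y axis) for the 5 antibodies. Circles are the DMSO library and squares the FHT-1015 library; SOX10 squares lie at or to the left of their circles at all 10 loci, from 58 and 27 at PAX3 to 4 and 1 at MSX2 and ZEB1.

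The number of SOX10 peaks was lower at 9 of the 10 loci and was equal at FOXD3. All 10 loci had at least 4 SOX10 peaks in DMSO, and 8 of them had at least 2-fold fewer in FHT-1015. Among all 15622 gene windows with that many DMSO peaks, 73.9% did so, which is near the share at the 10 loci. The median ratio over the loci was 0.45, against 0.333 over those windows. LEF1 was the 1 locus without any SOX10 peak in FHT-1015, as were 8.4% of the windows, and no locus had at least 2-fold more SOX10 peaks (0.0512% of the windows).

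For MITF the number was lower at 3 loci, equal at 1 and higher at 6, for TFAP2A it was lower at 6 and higher at 4, for SMARCA4 lower at 5, equal at 2 and higher at 3, and for H3K27ac lower at 6, equal at 1 and higher at 3. Counting only loci with at least 4 DMSO peaks, 0 of 7 had at least 2-fold fewer MITF peaks (14.9% of all such windows), 2 of 10 TFAP2A peaks (10.7%), 0 of 8 SMARCA4 peaks (9.32%) and 3 of 8 H3K27ac peaks (25.2%). The TFAP2A loci were LEF1 and IRF4, and the H3K27ac loci were LEF1, TBX2 and MSX2. At least 2-fold more peaks were found at FOXD3 for MITF (3.11% of windows) and for TFAP2A (1.3% of windows), and at no other such locus for these or for SMARCA4 (2.32%) and H3K27ac (0.34%). The MITF peaks added at FOXD3 were all weak, with values given below for that gene. None of the loci with at least 4 DMSO peaks was left without a peak of MITF (0.303% of windows), TFAP2A (0.158%), SMARCA4 (0.214%) or H3K27ac (0.501%).

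Retained peaks were DMSO peaks overlapped by at least 1 bp of a peak that the same antibody gave in FHT-1015. At the 10 loci 57 of 150 SOX10 peaks were retained, 38.0% with a 95% Wilson interval from 30.6% to 46.0%, and the other 93 were lost. In the whole SOX10 list 81.7% were lost. The retained share was 50.6% for MITF (40.4% to 60.7%, 45 of 89), 66.7% for TFAP2A (58.8% to 73.7%, 100 of 150), 64.9% for SMARCA4 (57.6% to 71.6%, 113 of 174) and 71.0% for H3K27ac (62.4% to 78.2%, 88 of 124). The lost shares of these 4 whole lists were 63.8%, 45.1%, 48% and 40.7%. The intervals cover counting error over peaks in these lists only, and peaks of 1 library are not replicates. For all 5 antibodies the share retained at the 10 loci lay above that of the whole list, but the median over loci lay closer to the median over all gene windows: 29.2% beside 22.2% (SOX10), 47.4% beside 44.4% (MITF), 71.0% beside 66.7% (TFAP2A), 64.0% beside 60.0% (SMARCA4) and 70.6% beside 66.7% (H3K27ac). Both medians take only loci or windows with at least 4 DMSO peaks, here 10, 7, 10, 8 and 8 loci. The shares before them take all 10 loci.

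**Figure D2:**
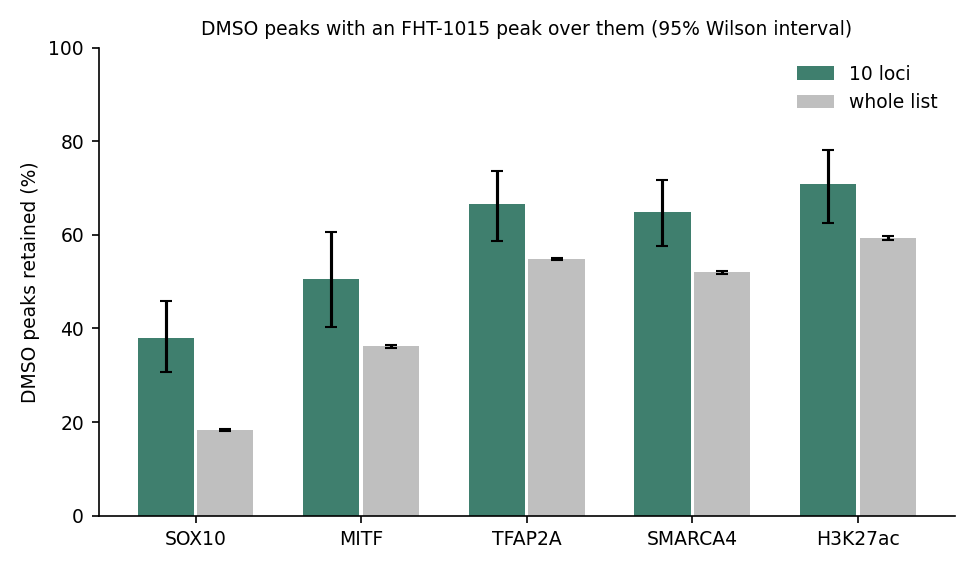
Percent of DMSO peaks retained in FHT-1015 (y axis, from 0), for the 10 loci (green) and the whole list (grey), with 95% Wilson intervals over peaks. SOX10 has the lowest bars, 38.0% at the loci and 18.3% in the whole list, and H3K27ac the highest, 71.0% and 59.3%.

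New peaks made up different shares of the FHT-1015 lists. Of the 66 SOX10 peaks in FHT-1015, 12 (18.2%) shared no base with a DMSO peak, against 38.5% in the whole list. For MITF this was 56 of 101 (55.4%, whole list 64.8%), for TFAP2A 42 of 140 (30.0%, whole list 34.4%), for SMARCA4 54 of 167 (32.3%, whole list 45.4%) and for H3K27ac 40 of 123 (32.5%, whole list 19.8%). H3K27ac was the 1 antibody whose share at the loci lay above that of its list. ZEB2 alone gave 26 of these 40 H3K27ac peaks and FOXD3 8, so the higher share was not spread over the loci. The numbers of strong peaks, those with −log10 p of at least 10 as given by the authors, differed from the totals. SOX10 had 64 strong peaks in DMSO and 18 in FHT-1015, MITF 44 and 28, TFAP2A 85 and 57, SMARCA4 40 and 38, and H3K27ac 53 and 62. Strong MITF peaks were fewer although all MITF peaks together were more numerous, and the same held in the whole MITF list. Ratios of FHT-1015 to DMSO strong peaks in the whole lists were 0.1171 (SOX10), 0.4093 (MITF), 0.6004 (TFAP2A), 0.9508 (SMARCA4) and 0.7943 (H3K27ac). At the 10 loci they were 0.2812, 0.6364, 0.6706, 0.95 and 1.1698. Of the strong DMSO peaks, those retained were 32 of 64 for SOX10 (50%, from 38.1% to 61.9%), 37 of 44 for MITF (84.1%), 71 of 85 for TFAP2A (83.5%), 35 of 40 for SMARCA4 (87.5%) and 48 of 53 for H3K27ac (90.6%). In the whole lists the retained shares of strong peaks were 33.0%, 61.7%, 71.5%, 85.2% and 87.6%.

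Retained peaks also differed in height. The height is given as summit reads, the number of reads stacked at the summit, recovered from the deposited fold and p and divided here by the relative depth. Of the 57 retained SOX10 peaks, 44 (77.2%) had fewer depth-scaled summit reads in FHT-1015, and the median ratio was 0.744. In the whole SOX10 list 89% of retained peaks were lower and the median ratio was 0.592. The median ratio at the 10 loci was 0.748 (MITF), 0.915 (TFAP2A), 1.15 (SMARCA4) and 1.38 (H3K27ac). Lower retained peaks numbered 29 of 45 for MITF (63.9% in the whole list), 59 of 100 for TFAP2A (55.4%), 40 of 113 for SMARCA4 (35.4%) and 24 of 88 for H3K27ac (37%). Several DMSO peaks could lie under 1 FHT-1015 peak and be set against the same summit. With overlapping peaks of both conditions joined and their highest summits compared, a choice made after seeing the data, the medians were 0.659 (SOX10), 0.748 (MITF), 0.860 (TFAP2A), 1.09 (SMARCA4) and 1.19 (H3K27ac), and in the whole lists 0.582, 0.830, 0.915, 1.09 and 1.10. A peak that dropped below the caller's threshold is not among the retained ones, so these ratios leave out the deepest losses. Summit reads of single sites in the sentences on each gene are as recovered, without scaling.

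Among the genes that act at the neural plate border and in early crest, PAX3, a paired-box factor needed for the formation of the crest and of melanoblasts, had more peaks of each antibody than any other member in DMSO. The gene lies at chr2:222199887-222298998, and its window includes RNF228. Its window had 58 SOX10 peaks in DMSO, or 29.1 per 100 kb, the 9th highest density of 19970 gene windows, whose median was 4.96. In FHT-1015 there were 27, with 28 of the DMSO peaks retained, since 1 FHT-1015 peak can lie over several DMSO peaks. MITF had 28 and 21 peaks, TFAP2A 38 and 34, SMARCA4 51 and 59, and H3K27ac 32 and 35. H3K27ac covered 58.0% of the window with DMSO and 59.0% with FHT-1015, and 29 of its 32 peaks were retained, so that the acetylated length was nearly equal although SOX10 peaks were fewer.

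The strongest SOX10 peak of the PAX3 window lay at chr2:222159158-222160658, 139 kb downstream of the start and beyond the 3′ end of the gene. It had 159 summit reads in DMSO and 113 in FHT-1015. Over it MITF had 195 and 156, TFAP2A 111 and 87, SMARCA4 37 and 37, and H3K27ac 218 and 253. Every antibody therefore kept its peak at this site, with SOX10, MITF and TFAP2A lower. The peaks at the PAX3 start were kept as well: SOX10 had 44 and 33 summit reads, MITF 11 and 16, TFAP2A 41 and 48, and the H3K27ac domain there spanned 15616 bp and 15677 bp. PAX3 had the strongest peak of those seen only in FHT-1015 for TFAP2A, at chr2:222295133-222295706 with 21 summit reads, 3.46 kb inside the gene, and the second strongest for MITF, at chr2:222247453-222247706 with 17.

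**Figure D3:**
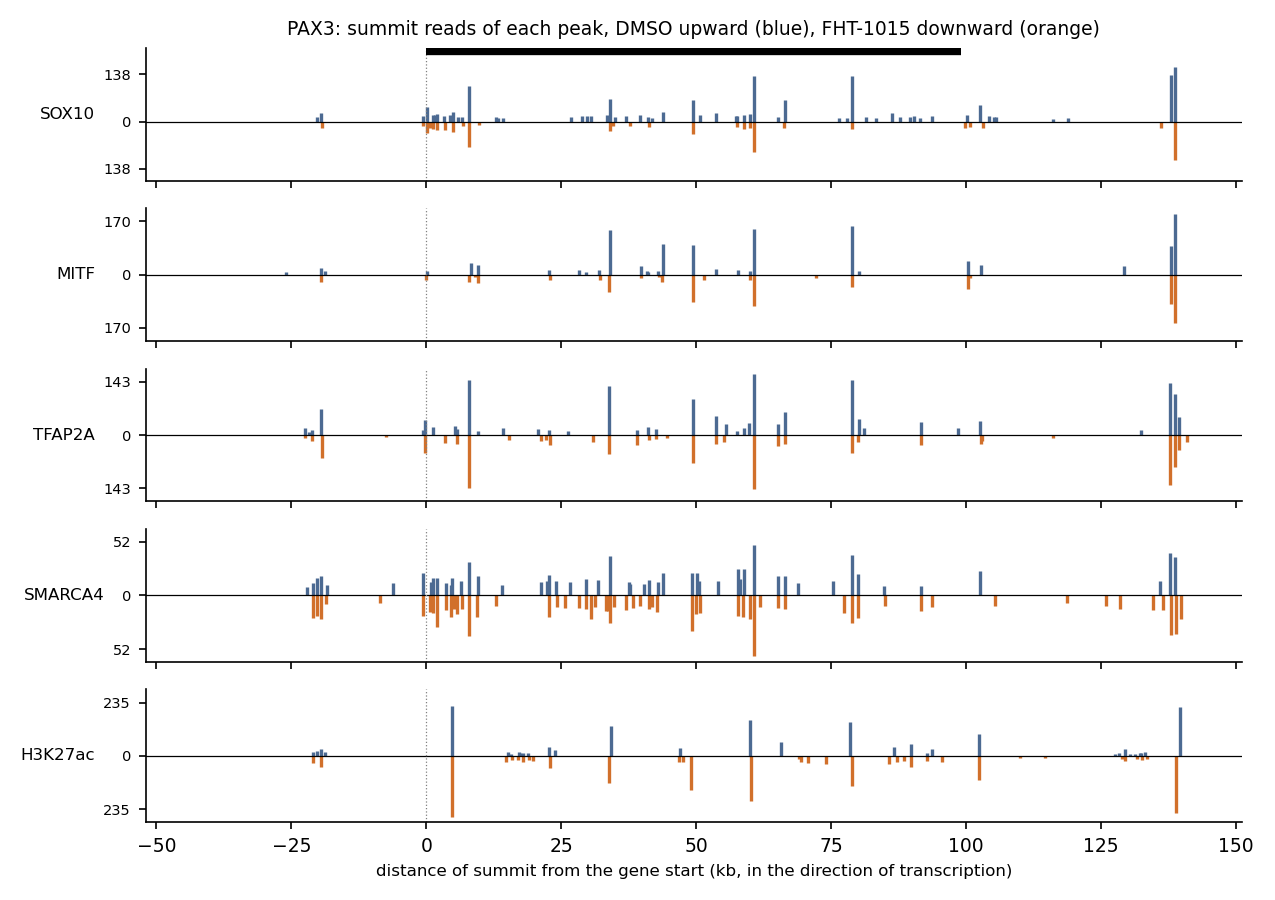
Summit reads of each narrow peak (y axis, DMSO upward in blue and FHT-1015 downward in orange) against its distance from the PAX3 start in the direction of transcription (x axis, kb), for the 5 antibodies; the black bar is the gene. SOX10 has 58 lines upward and 27 downward, while H3K27ac has 32 and 35, with the strongest SOX10 peak at 139 kb present in both conditions.

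FOXD3, a forkhead factor that specifies early crest and holds back the melanocyte fate, differed from the other members in that none of the 5 antibodies had fewer peaks in FHT-1015. The gene lies at chr1:63322567-63325128, and ALG6 is the coding neighbour in its window. SOX10 had 10 peaks in each condition, but only 5 of the DMSO peaks were retained and 1 of the FHT-1015 peaks was strong, against 5 in DMSO. MITF had 5 and 10 peaks, TFAP2A 9 and 20, SMARCA4 10 and 14, and H3K27ac 7 and 12. The 8 MITF peaks seen only in FHT-1015 were weak, with 5 to 12 summit reads and −log10 p from 2.52 to 6.47. The 12 such TFAP2A peaks had 7 to 16 summit reads and −log10 p from 3.10 to 10.6. The H3K27ac length was 6567 bp in DMSO and 12832 bp in FHT-1015, a ratio of 1.95. The 7 DMSO H3K27ac peaks lay under 4 FHT-1015 peaks. Comparing the highest summits of each of these 4 sites after scaling by depth, H3K27ac was higher in FHT-1015 at all of them, by ratios from 1.19 to 2.88 with a median of 1.67.

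At the FOXD3 start, with the CACGTG shown above, MITF had 44 summit reads in DMSO and 47 in FHT-1015, and H3K27ac had 38 and 115. SOX10 had 36 and 17 there. The highest SOX10 peak of the window by p, at chr1:63274911-63275431, 47.4 kb upstream, had 79 and 60 summit reads, with TFAP2A at 124 and 118. The FHT-1015 H3K27ac peak over it, with 75 summit reads, also covered a neighbouring DMSO peak with 60, and the DMSO H3K27ac peak at the site itself had 16. Of all SOX10 peaks seen only in FHT-1015 at the 10 loci, the strongest was at chr1:63324191-63324676, inside FOXD3, with 17 summit reads. FOXD3 also had the second strongest such peak for TFAP2A, SMARCA4 and H3K27ac, with 15, 25 and 18 summit reads.

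MSX2, a homeobox factor of the neural plate border, lies at chr5:174724582-174730896 with no coding neighbour in its window. SOX10 had 4 peaks there with DMSO and 1 with FHT-1015. The window had 3 MITF peaks in each, 9 and 5 TFAP2A peaks, 9 and 7 SMARCA4 peaks, and 6 and 1 H3K27ac peaks. Inside the gene, at chr5:174727974-174728535, its strongest SOX10 peak had 30 summit reads in DMSO and no peak in FHT-1015. MITF at that place had 62 and 16, while TFAP2A with 45 and H3K27ac with 15 in DMSO had no peak left. The strongest start peak of each of 4 antibodies was kept: H3K27ac had 46 and 78 summit reads, SMARCA4 32 and 53, TFAP2A 46 and 45, and SOX10 27 and 23. The MITF peak at the start, with 9 summit reads in DMSO, was lost.

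SNAI2, TWIST1, ZEB1 and ZEB2 are repressors or regulators that drive the epithelial to mesenchymal transition of migrating crest. SNAI2, a zinc-finger repressor also needed by melanoblasts, lies at chr8:48917598-48921429 with no coding neighbour in the window. SOX10 had 16 peaks with DMSO, 9 of them retained, against 9 with FHT-1015. MITF had 13 and 10, TFAP2A 15 and 19, SMARCA4 24 and 18, and H3K27ac 16 and 15. The strongest SOX10 peak of the 10 loci, ranked 6 of 103379 in the DMSO list, lay at chr8:48899142-48901032. It had 286 summit reads in DMSO and 274 in FHT-1015. MITF had 257 and 263 there, TFAP2A 238 and 273, SMARCA4 191 and 210, and H3K27ac 345 and 358. This site kept all 5 peaks.

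The strand of SNAI2, TWIST1 and TBX2 was not in the annotation used, so for these 3 genes a peak within 1 kb of either end was taken as a start peak. At SNAI2 the strongest such SOX10 peak had 208 and 227 summit reads, MITF 115 and 196, TFAP2A 181 and 247, and H3K27ac 243 and 333. All 4 were higher in FHT-1015, though the SOX10 difference was smaller than the depth ratio of 1.15 between its libraries. A weak SOX10 peak with 25 summit reads, at chr8:48917835-48918215 in the gene, was the second strongest of those found only in FHT-1015.

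TWIST1, a basic helix-loop-helix factor, lies at chr7:19113047-19117636, with FERD3L in its window. SOX10 had 9 and 4 peaks, MITF 6 and 10, TFAP2A 9 and 7, SMARCA4 14 and 12, and H3K27ac 8 and 7. The strongest TWIST1 start peak had 43 and 66 summit reads for SMARCA4 and 125 and 190 for H3K27ac. For SOX10 it had 30 and 29 and for TFAP2A 59 and 62, each at another place in FHT-1015. MITF had a TWIST1 start peak in FHT-1015 only, with 23. At chr7:19094609-19095918 lay its strongest SOX10 peak, which had 173 and 105 summit reads. MITF at this site had 179 and 110, TFAP2A 162 and 106, and SMARCA4 85 and 66, while H3K27ac had 165 and 199. The 4 bound factors were lower together there and the acetylation was not. The DMSO H3K27ac peak over this site spanned 6976 bp and also reached over a neighbouring FHT-1015 H3K27ac peak with 92 summit reads, so the intervals compared are unlike.

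ZEB1 and ZEB2 are related zinc-finger repressors that read E-boxes, and their loci were occupied to different degrees. ZEB1, at chr10:31318417-31529804 with no coding neighbour, had few peaks: 4 and 1 of SOX10, 3 and 8 of MITF, 7 and 6 of TFAP2A, 3 and 3 of SMARCA4, and 2 and 2 of H3K27ac. None of its 3 MITF peaks, with 8 to 12 summit reads, was retained. The 8 MITF peaks of FHT-1015 were as weak, with 5 to 10. Its strongest SOX10 peak, at chr10:31318648-31319096 near the first annotated start, had 22 summit reads in DMSO and no peak in FHT-1015. TFAP2A at that place had 48 and 45 and H3K27ac 54 and 78. The strongest SMARCA4 peak seen only in FHT-1015 at the 10 loci lay next to it, at chr10:31319249-31319824, with 35 summit reads.

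ZEB2, at chr2:144384081-144520119 with no coding neighbour, had 22 and 10 SOX10 peaks, and its strong SOX10 peaks numbered 16 and 3. MITF had 19 and 22 peaks, TFAP2A 19 and 20, SMARCA4 31 and 32, and H3K27ac 29 and 41. The H3K27ac length was 29736 bp in DMSO and 41456 bp in FHT-1015, and 2 neighbouring DMSO peaks next to the start, of 9700 bp (176 summit reads) and 2348 bp (133), lay under 1 FHT-1015 peak of 12801 bp (230). No SOX10, MITF or TFAP2A peak lay at the start, although the promoter held CACATG, the reverse complement of CATGTG, 180 bases before it and ACAAAG 138 bases before it. A peak inside the gene at chr2:144450500-144451278, with 24 summit reads, was the strongest H3K27ac peak found only in FHT-1015 at the 10 loci. The strongest SOX10 peak lost at any of the 10 loci was 39.8 kb upstream, at chr2:144559676-144560184, with 112 summit reads in DMSO. TFAP2A at this site had 185 and 30, and SMARCA4 had 53 and no peak, also the strongest SMARCA4 peak lost. MITF and H3K27ac had no peak there in either condition.

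LEF1, TBX2 and IRF4 act in the melanocyte lineage, LEF1 as the DNA-binding effector of Wnt signalling, TBX2 as a T-box repressor that holds off senescence, and IRF4 as an interferon regulatory factor that takes part in pigmentation. LEF1 lies at chr4:108047548-108168932, with HADH and LOC124900752 in its window. Its 12 SOX10 peaks in DMSO, 7 of them strong, stood against 0 in FHT-1015, a retained share of 0% with an upper Wilson limit of 24.2%. TFAP2A had 16 and 7 peaks, SMARCA4 15 and 9, H3K27ac 8 and 4, and MITF 5 and 8. Its strongest one, at chr4:108058615-108059053 in the gene and 107 kb from the start, had 45 SOX10 summit reads in DMSO. The TFAP2A peak over it, with 74 summit reads, was the strongest TFAP2A peak lost at the 10 loci, and the SMARCA4 peak with 18 was lost too. A second site beyond the 3′ end, at chr4:108003934-108004322, lost SOX10 (31 summit reads), TFAP2A (62), SMARCA4 (34) and H3K27ac (31), while MITF had 71 and 16. At chr4:108103121-108103493 MITF (38) and SOX10 (35) were both lost, this being the second strongest MITF peak lost at the 10 loci. At the start used, which lies inside the annotated gene body, SMARCA4 in FHT-1015 with 26 summit reads was the only peak. Over the 5′ end of the gene body, at chr4:108168932, TFAP2A had peaks with 30 and 33 summit reads. SOX10 had a peak with 16 there in DMSO only, and MITF a peak with 8 in FHT-1015 only.

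**Figure D4:**
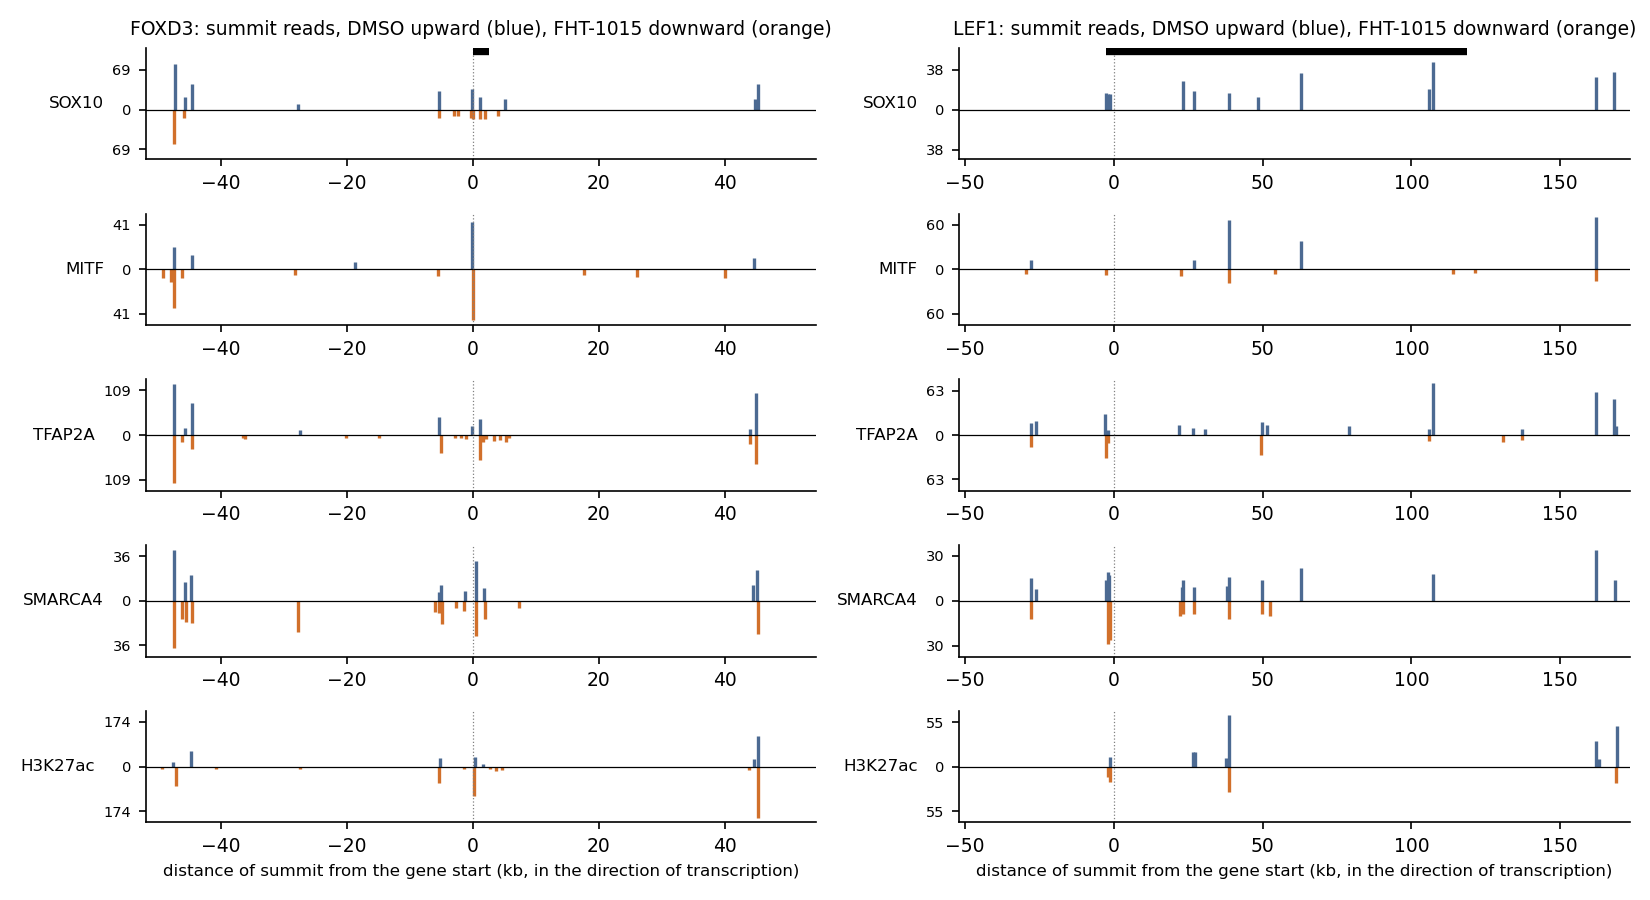
Summit reads of each narrow peak (y axes, DMSO upward in blue, FHT-1015 downward in orange) against the distance from the start of FOXD3 (left) and LEF1 (right) in the direction of transcription (x axes, kb); black bars are the genes. FOXD3 has 10 SOX10 peaks in each condition, whereas LEF1 has 12 in DMSO and 0 in FHT-1015.

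TBX2 lies at chr17:61399843-61409466, with BCAS3 and TBX4 in its window. SOX10 had 11 and 2 peaks, MITF 6 and 4, TFAP2A 17 and 18, SMARCA4 15 and 11, and H3K27ac 13 and 6. Its strongest SOX10 peak, at chr17:61393614-61394547, had 105 summit reads in DMSO and none called in FHT-1015. TFAP2A over it had 209 and 62, MITF 61 and 44, H3K27ac 67 and 37, and SMARCA4 had 50 and no peak. At another site of the window, at chr17:61412156-61412682, MITF had a peak only in FHT-1015, the strongest of that kind at the 10 loci, with 21 summit reads. SOX10 had 38 there in DMSO and no peak in FHT-1015, while TFAP2A had 219 and 233 and H3K27ac 31 and 70. The strongest MITF peak lost at the 10 loci was also here, at chr17:61417983-61418348, with 46 summit reads. The first 2 sites of this locus differed in TFAP2A and H3K27ac although SOX10 was lost at both. Of the TBX2 start peaks, the strongest of SOX10 had 39 summit reads in DMSO, and SOX10 had none in FHT-1015. The strongest start peak had 30 and 9 for MITF and 129 and 92 for TFAP2A. For SMARCA4 it had 29 and 49 and for H3K27ac 76 and 81, each at another place in FHT-1015.

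IRF4 lies at chr6:391752-411443, with DUSP22 in its window. SOX10 had 4 and 2 peaks, MITF 1 and 5, TFAP2A 11 and 4, SMARCA4 2 and 2, and H3K27ac 3 and 0. The 4 MITF peaks seen only in FHT-1015 were weak, with 6 to 7 summit reads. All 4 SOX10 peaks were lost, and no peak of any antibody lay at the start in either condition. The strongest SOX10 peak, at chr6:395952-396490, 4.55 kb inside the gene, had 69 summit reads in DMSO. MITF there had 72 and 19, TFAP2A 34 and no peak, and H3K27ac 46 and no peak. The SMARCA4 peak with 33 was lost too, and the FHT-1015 SMARCA4 peak with 19 at the same site shared no base with it. That H3K27ac peak was the strongest one lost at the 10 loci.

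The company that SOX10 kept was taken from peaks of other antibodies that shared at least 1 bp with a SOX10 peak. In DMSO 42.0% of the 150 SOX10 peaks had a MITF peak, 56.7% a TFAP2A peak, 68.0% a SMARCA4 peak and 80.0% an H3K27ac peak. Among the 66 SOX10 peaks of FHT-1015, new ones included, the shares were 45.5%, 72.7%, 77.3% and 92.4%. In the whole lists they were 45.0%, 61.3%, 55.0% and 49.6% for DMSO and 37.7%, 54.1%, 51.0% and 55.5% for FHT-1015. The shares with MITF, TFAP2A and SMARCA4 were thus lower in FHT-1015 over the whole lists and higher at the 10 loci. SOX10 peaks with more partners were retained more often at the 10 loci, though not at every step: 1 of 13 with no partner, 1 of 30 with 1, 12 of 27 with 2, 14 of 34 with 3 and 29 of 46 (63.0%) with all 4. In the whole list the shares were 8.43%, 6.40%, 11.1%, 20.2% and 39.5%. Most of the 12 retained peaks with 2 partners lay in PAX3. Many of them were in chr2:222292102-222297496, where 1 FHT-1015 peak could lie over several DMSO peaks. The median −log10 p of the SOX10 peaks at the 10 loci differed over the same classes, at 3.77, 4.25, 7.29, 8.28 and 23.9. The part of this strength in the retained share was not tested.

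Of SOX10 peaks with SMARCA4 in DMSO, 53 of 102 were retained (52%), against 4 of 48 (8.33%) without. In the whole list these shares were 24.7% and 10.5%. With and without H3K27ac the counts were 55 of 120 (45.8%) and 2 of 30 (6.67%), against 29.6% and 7.21% in the whole list. The median −log10 p with and without SMARCA4 was 12.1 and 3.93. Near the starts, within 1 kb, 11 of 18 SOX10 peaks were retained, 17 of 17 TFAP2A peaks, 12 of 15 SMARCA4 peaks and 4 of 6 MITF peaks. Of all peaks within 1 kb of any start in the RefSeq promoter table, 42.5%, 84.7%, 85.6% and 65.8% were retained. The member counts also take in peaks at either end of SNAI2, TWIST1 and TBX2, so these sets are not alike.

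**Figure D5:**
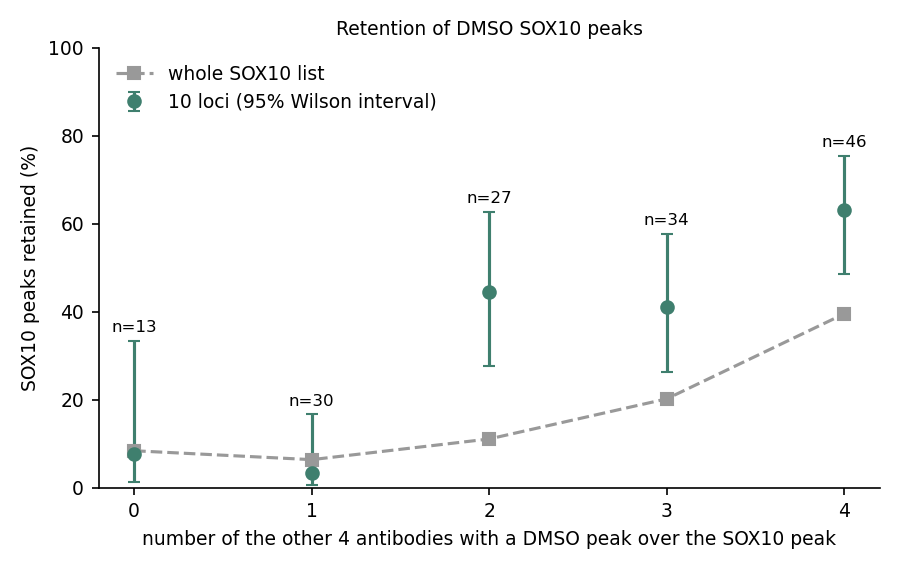
Percent of DMSO SOX10 peaks retained in FHT-1015 (y axis) by the number of other antibodies with a DMSO peak over them (x axis), for the 10 loci (circles, with 95% Wilson intervals) and the whole list (squares). The share at the loci is 7.69% without a partner and 63.0% with 4, and that of the whole list 8.43% and 39.5%.

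When overlapping peaks of SOX10, MITF and TFAP2A were merged into sites, the 10 loci held 299. Of these, 44 had all 3 factors in DMSO, and all 44 also had SMARCA4 and H3K27ac, against 85.2% and 75.5% of the 34850 such sites in the genome. Sites with all 3 factors numbered 22 in FHT-1015, and 18 of the 44 had kept them (40.9%, from 27.7% to 55.6%), against 26.2% of all. SOX10 was missing in FHT-1015 at 19 of the 44, MITF at 17 and TFAP2A at 9, and 3 had none of the 3 left. These are 43.2%, 38.6%, 20.5% and 6.82%, against 67.3%, 45.8%, 33.0% and 22% of all such sites. Such sites numbered 12 in DMSO and 8 in FHT-1015 at PAX3, 8 and 3 at ZEB2, 7 and 4 at SNAI2, 5 and 3 at TWIST1, and 4 and 4 at FOXD3. MSX2 had 3 and 0, LEF1 and TBX2 2 and 0 each, IRF4 1 and 0, and ZEB1 none in either condition.

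A list of 25 other neural crest factors gave a wider view of the same path. Over their loci SOX10 had 347 peaks with DMSO against 127 with FHT-1015, a ratio of 0.366, and 27.1% of the former were retained. Of the 21 loci with at least 4 SOX10 peaks, 20 had fewer and 17 had at least 2-fold fewer. Among all 15622 gene windows with that many, 73.9% had at least 2-fold fewer, which is near the share at these loci. The share of all windows with any fewer was not counted. MITF had 240 and 215 peaks, TFAP2A 408 and 346, SMARCA4 428 and 380, and H3K27ac 272 and 256. Among those with at least 5 SOX10 peaks, ID2 had the highest ratio, 9 and 11 peaks (1.22), and MYCN, TWIST2 and TBX3 the lowest, with 5, 7 and 6 peaks in DMSO and 0 in FHT-1015.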

How the data were processed

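ChIP-seq peak lists of 92-1 cells were analysed, 14 in all: 10 narrow lists, 1 for each library, and 4 broad lists for SMARCA4 and H3K27ac. Groups came from the sample titles. BWA, SAMtools, Picard, MACS2 and hg38 are named in the submitters' processing notes, and their settings are not given in the sources used here. The authors deposited, for each peak, a fold enrichment (a ratio over the caller's background), a −log10 p and a −log10 q, used here only to describe, order or select peaks of the same list. The authors' deposited peak score was not used. The lowest −log10 p was just above 2 in every list, so that weak peaks were included.

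Peaks that shared at least 1 bp with a window were counted with Python 3.11.15, pandas 2.3.3, numpy 2.4.6 and scipy 1.17.1. Shares carry 95% Wilson intervals. Summit reads and relative depth were recovered by assuming that the fold is (x + 1)/(λ + 1) and p the Poisson upper tail, with x the summit reads and λ the background. A whole x gave the deposited −log10 p within 0.01 for 100% of 4000 peaks sampled from each list, except the SOX10 FHT-1015 list, where it did so for 99.95% after division by 0.890. The fold and p were deposited rounded, so this share depends on that tolerance. Counting was tested on simulated lists. With 1 library per antibody and condition, no test was made. The members and lists were chosen with earlier results of these data known.

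Named were all 10 members, the strongest DMSO SOX10 peak in each window, the 2 strongest lost and the 2 strongest FHT-1015-only peaks for each antibody, start peaks, and, of the 25 other factors, those with the highest and lowest SOX10 ratio. Alternatives were the threshold (p, q), the overlap, the flank, each locus left out, the broad lists and lists cut to equal number, and, for heights, joined peaks, both of these chosen after seeing the data.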

Additional observations from a re-analysis of the deposited data

How the results depend on the processing

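No paired analysis was possible because each antibody had 1 library per condition. The SOX10 retained share lay between 31.5% without PAX3 and 41.3% without LEF1, and the SOX10 number ratio between 0.40 without FOXD3 and 0.478 without LEF1. Strong DMSO peaks against whole FHT-1015 lists gave retained shares of 50% for SOX10, 84.1% for MITF, 83.5% for TFAP2A, 87.5% for SMARCA4 and 90.6% for H3K27ac. When both lists were held to a −log10 p of 10 or more, the number ratio was 0.281 for SOX10, turned to 0.636 for MITF and 1.17 for H3K27ac, and the H3K27ac retained share was 88.7%. The MITF ratio was 0.937 at q up to 0.05. With 20 kb on either side, number ratios turned to 1.03 for TFAP2A and 1.10 for H3K27ac, and TFAP2A covered length to 1.05. With 100 kb the SMARCA4 covered length ratio was 0.975. The broad lists gave 0.999 for SMARCA4 length and 1.10 for H3K27ac number. Asking for 50% of the DMSO peak to be covered, the SMARCA4 retained share was 56.3%. In lists of equal number (the strongest peaks of the longer list, added after seeing the data) the number ratios turned to 1.27 for SOX10, 1.05 for TFAP2A, 1.04 for SMARCA4 and 1.46 for H3K27ac, TFAP2A length to 1.05, and SOX10 length was 0.884. Retained shares were then 51.9% for SOX10 and 83.3% for H3K27ac. For SOX10, TFAP2A, SMARCA4 and H3K27ac the DMSO list was the longer, so that only its weaker peaks were removed in lists of equal number. The cause of the reversals was not tested. Leaving out 1 locus, covered length ratios ranged over 0.893 to 1.01 for MITF and 0.929 to 1.03 for TFAP2A, and the H3K27ac number ratio from 0.863 to 1.05. Among SOX10 peaks in DMSO, the share with MITF was 32.7% with at least 50% covered and 53.1% with −log10 p of at least 10, where the shares were 71.9% with TFAP2A and 56.3% with SMARCA4. In FHT-1015 those shares were 61.1% with MITF, 83.3% with TFAP2A, 88.9% with SMARCA4 and 100% with H3K27ac, over 18 SOX10 peaks. For MITF, TFAP2A, SMARCA4 and H3K27ac the direction of at least 1 ratio near 1 was thus not kept under every alternative. Median summit ratios kept their direction with joined peaks and without each locus in turn, between 0.668 and 0.811 for SOX10 and between 1.305 and 1.45 for H3K27ac in the latter.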
